A study of Mus musculus with 441 samples.

Results

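Of the 184 CD4 T cells that were sorted singly from mouse pancreatic islets with the HIP tetramer, 172 fell in either of 2 classes of the authors' annotation, and these classes are compared here. The first is cluster 2, which the annotation names activated CD4 T cells, with 61 cells. The second is cluster 0, named T follicular helper cells, with 111 cells. Members were taken from the annotation by sort and class name, with no use of expression by the rule itself, out of 441 cells in the series. A tetramer holds copies of an MHC class II molecule with its peptide, and labels those T cells whose antigen receptor recognises that pair. The labels give the abbreviation HIP without spelling it out. The sources used here do not give strain, genotype, age or treatment of the mice, and no animal is named, so the sort is 1 sample. Libraries were made from total RNA with the full-length SMART-Seq2 method.

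T follicular helper cells are CD4 T cells that help B cells make antibody. The transcription factors Bcl6 and Tcf7 (TCF-1) support that state, the chemokine receptor Cxcr5 brings the cells to B cell follicles, and the cytokine Il21 acts on B cells. The transcription factor Prdm1 (Blimp-1) and Bcl6 repress each other, and Prdm1 is typical of effector CD4 T cells, which carry receptors such as Cxcr6 into tissue and can make interferon gamma and inflammatory chemokines. In long-standing antigen exposure, as in autoimmune islets, T cells also carry inhibitory receptors such as Lag3, Pdcd1 (PD-1) and Tigit.

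Both classes came from the same sort and the same blocks of 96 consecutive cell numbers. The cell number used is the one after the letter S in a cell's title, not the running count that the title also gives. The first block held 27 cells of cluster 2 and 59 follicular helper cells, and the second held 34 and 52. The labels do not say what a block is. Values are TPM, a unit of transcript abundance that is scaled for transcript length and sums to 1000000 in each cell. Detection means a value of 1 TPM and above. Of 13561 genes, 3279 reached detection in 20% or more of the cells in one class or the other and were compared. A difference in level was called where the mean TPM over cells differed at least 2-fold in the same direction in both blocks. A difference in share was called where the exact Clopper-Pearson 95% intervals of the shares of cells did not overlap. These intervals cover counting error only. For a gene detected in 0 cells, the limit given is a floor of 3 cells over the cells of the class, not such an interval. The exact interval for 0 cells, which the share rule used, reaches 5.87% in cluster 2 and 3.27% in the follicular helper class. In each pair of values below, cluster 2 comes first and the follicular helper class second, and a percentage is a share of cells with at least 1 TPM. The classes were cut by the authors from the same expression values, and cells are not replicates, so the calls describe these cells and no test, p-value or standard error is given.

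By these rules 154 genes (4.70% of those compared) were higher in level in cluster 2 and 190 (5.79%) were lower. In share of cells, 142 genes (4.33%) were higher in cluster 2 and 39 (1.19%) were lower. Both rules called 76 genes higher and 30 lower. These shares over all genes compared are the background for every count of called list members below. A gene could pass the filter through 1 class alone, so such counts are no test of a list. The split in level depends on the scale: with a difference in mean log2(TPM + 1) of at least 1 in both blocks, which weighs detection more than peak level, 233 genes were higher and 70 lower, which included 89 of the 154 and 41 of the 190. The 10 leading genes of cluster 2 by fold in level held 4 markers from a list of 17 type 1 effector markers (Ccl3, Ccl4, Ccl5 and Prdm1) and 0 of 11 markers of activation through the antigen receptor. Of those 11, 5 passed the filter, of which Tnfrsf4 was higher by both rules and Cd69 lower in share. The class is therefore called by its number. The 10 leading genes of the follicular helper class included Cxcr5 and Tcf7.

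**Figure D1:**
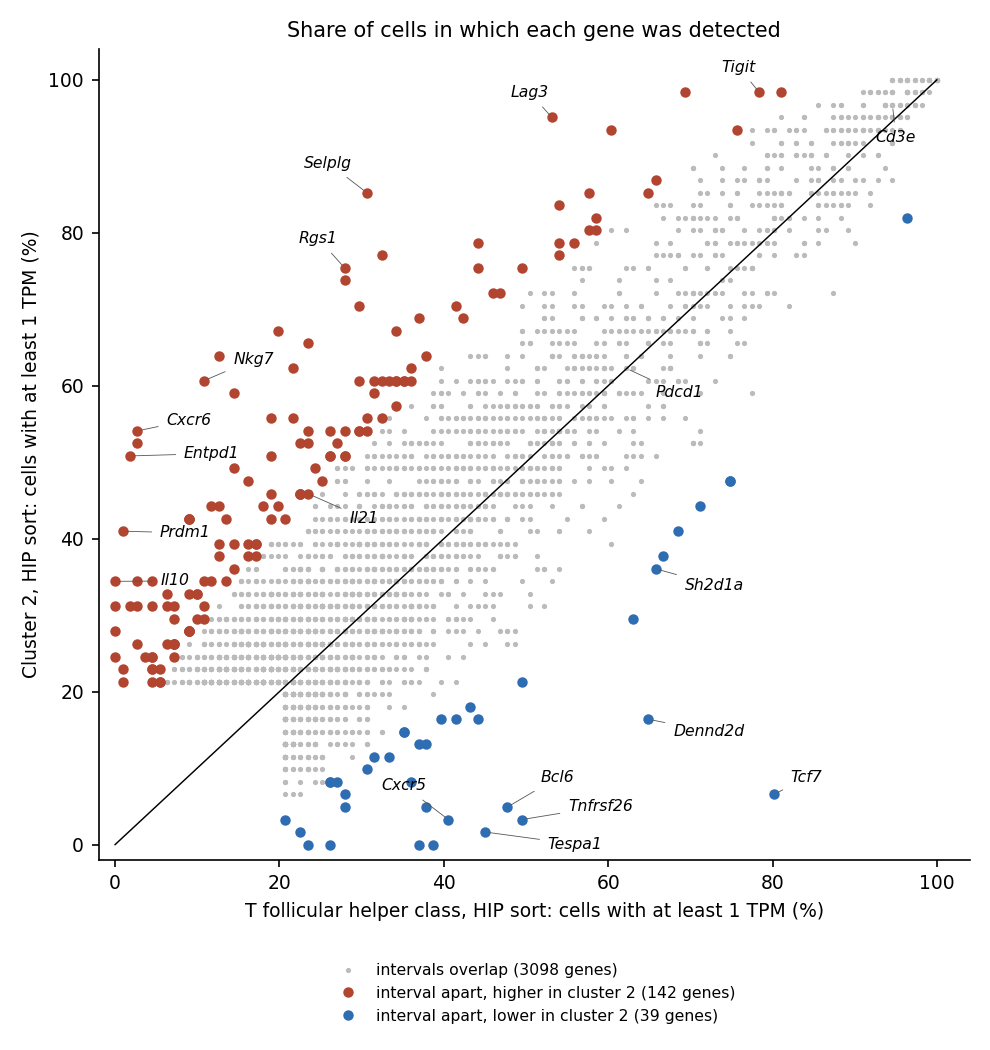
Each point is 1 of the 3279 genes compared, placed by the share of the 111 follicular helper cells (x axis, %) and of the 61 cells of cluster 2 (y axis, %) with at least 1 TPM. The diagonal marks equal shares. Points with intervals that do not overlap are red (142 genes, higher in cluster 2) or blue (39 genes, lower), with Tcf7 far out at the lower right and Selplg, Cxcr6 and Entpd1 at the upper left.

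Core genes of the follicular helper program were lower in cluster 2, with the largest difference in share at Tcf7. Tcf7 (chr11:52252371-52283014, minus strand, GRCm38) was detected in 4 of 61 cells of cluster 2 (6.56%, interval 1.82% to 15.9%) and 89 of 111 follicular helper cells (80.2%, interval 71.5% to 87.1%). Its TPM per cell ran from 0 to 764 with a median of 0 in cluster 2, and from 0 to 5960.1 with a median of 656 in the follicular helper class. The mean was 33.8 ± 138 TPM (SD over cells) against 1035 ± 1149.9 TPM, and 0.0323 and 0.0313 times the follicular helper mean in the first and second block. Bcl6 (chr16:23965052-23988852, minus strand), the repressor that sets up the follicular helper state, was detected in 3 of 61 cells of cluster 2 (4.92%, interval 1.03% to 13.7%) and 53 of 111 follicular helper cells (47.7%, interval 38.2% to 57.4%). Its mean was 13.1 ± 70.2 TPM against 197 ± 379 TPM, and in the first block no cell of cluster 2 detected it. Cxcr5 (chr9:44511787-44561877, minus strand) was detected in 2 of 61 cells of cluster 2 (3.28%, interval 0.40% to 11.3%) and 45 of 111 follicular helper cells (40.5%, interval 31.3% to 50.3%), at a mean of 14.3 ± 111 TPM against 446.8 ± 791 TPM. The ranges of single cells overlapped for these 3 genes, because 8 of 61 cells of cluster 2 detected at least 1 of them and some follicular helper cells were listed at 0.

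Sh2d1a (SAP), the adaptor of SLAM receptors that T cells need to stay with B cells, was detected in 36.1% against 65.8% of the cells of cluster 2 and the follicular helper class, at 316 against 1260.0 TPM. Tox2, a transcription factor of the same program, was at 21.3% against 49.5% and 48.1 against 277 TPM. Id3, an inhibitor of E proteins, was detected in 0 of 61 cells of cluster 2 (floor of 3 cells, 4.92%) and in 26 of 111 follicular helper cells (23.4%). The inhibitory receptor Btla was at 13.1% against 21.6%, lower in level at 23.5 against 85.8 TPM, with intervals that overlap. Of 28 listed follicular helper genes, 20 passed the filter. Level was lower in 7 and higher in 2, where 5.79% and 4.70% of all genes compared were. Share was lower in 6 and higher in 3, where 1.19% and 4.33% were. The median difference in share was -8.17 points, beside 3.38 points over all genes compared.

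Other genes often used to recognise follicular helper cells were called by neither rule. Pdcd1 was detected in 62.3% against 62.2% of cells, at a mean of 959.8 against 967 TPM. Icos, the costimulator that sustains Bcl6, was detected in 59.0% against 46.8% and was at 306 against 224 TPM. Cd200 was at 52.5% against 50.5% and 355 against 300.1 TPM. The highest Pdcd1 values were 8282 and 6953 TPM, and single cells of the classes overlapped over most of that range. Il21 was higher in cluster 2: 28 of 61 cells of cluster 2 (45.9%, interval 33.1% to 59.2%) and 26 of 111 follicular helper cells (23.4%, interval 15.9% to 32.4%) detected it, at a mean of 104 ± 182 TPM against 37.3 ± 117 TPM, or 2.01 and 5.85 times the follicular helper mean in the first and second block. The transcription factor Maf, which acts on Il21 and Il10, was detected in 57.4% against 34.2% with intervals apart, at 83.9 against 27.1 TPM. Its level was 6.22 and 1.96 times that of the follicular helper class in the 2 blocks, so the level rule did not call it. St6galnac3, a sialyltransferase gene that the follicular helper list held, was at 21.3% against 4.50% and was the other member of the list called higher in level beside Il21.

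**Figure D2:**
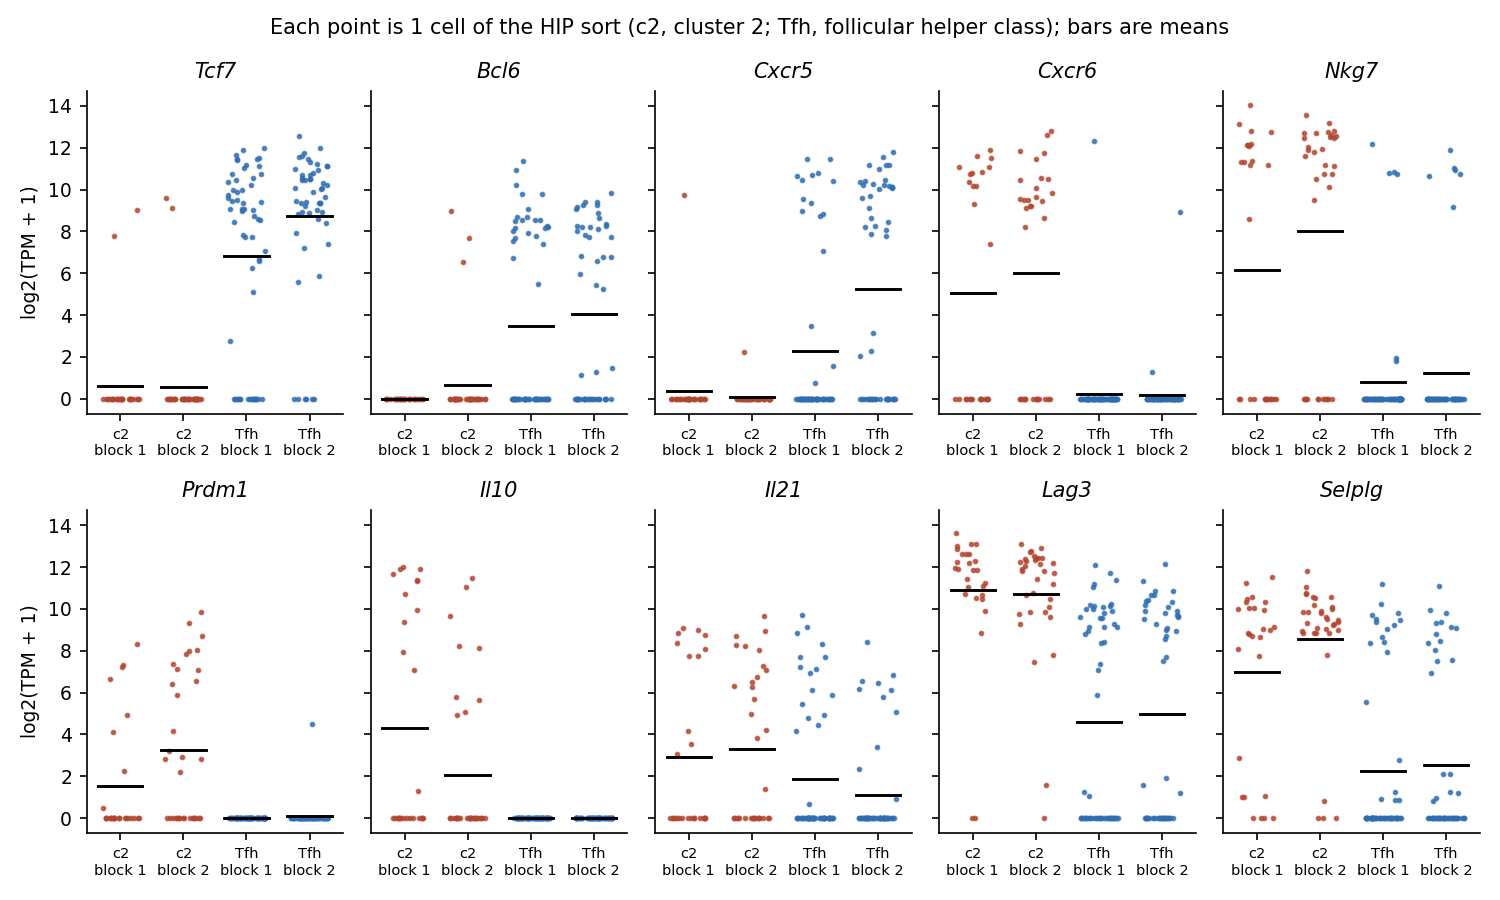
Each panel is 1 gene, each point 1 cell of the HIP sort and each bar the mean of log2(TPM + 1) (y axis) in a class and block. Tcf7, Bcl6 and Cxcr5 lie mostly at 0 in cluster 2 (c2), Cxcr6, Nkg7, Prdm1 and Il10 mostly at 0 in the follicular helper class (Tfh), and Il21, Lag3 and Selplg have cells above 0 in both. Prdm1 and Il10 are also at 0 in most cells of cluster 2, and Bcl6 and Cxcr5 in most follicular helper cells.

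Several type 1 effector genes were higher in cluster 2 in both blocks. Of 24 listed genes, 14 passed the filter, 7 were called higher in level, 8 higher in share and 0 lower by either rule. Over all genes compared, 4.70% were higher in level and 4.33% in share. The median difference in share was 21.2 points and the median ratio of means 8.44, beside 3.38 points and 0.973 over all genes compared. Members such as Prdm1, Nkg7 and Cxcr6 passed the filter through cluster 2 alone. The counts and medians therefore lean toward genes high there and are no test of the list. Prdm1 (chr10:44437177-44528501, minus strand) was detected in 25 of 61 cells of cluster 2 (41.0%, interval 28.6% to 54.3%) and 1 of 111 follicular helper cells (0.901%, interval 0.0228% to 4.92%). Its TPM reached 919 in cluster 2 and 22.0 in the single follicular helper cell above 1 TPM. Nkg7 (chr7:43437073-43438249), a granule protein of cytotoxic and type 1 lymphocytes, was detected in 37 of 61 cells of cluster 2 (60.7%, interval 47.3% to 72.9%) and 12 of 111 follicular helper cells (10.8%, interval 5.71% to 18.1%). Its median was 2218 TPM in cluster 2 and 0 in the follicular helper class, and its mean was 15.5 and 14.0 times the follicular helper mean in the first and second block. Cxcr6 (chr9:123806475-123811760), a chemokine receptor of T cells that settle in tissue, was detected in 33 of 61 cells of cluster 2 (54.1%, interval 40.8% to 66.9%) and 3 of 111 follicular helper cells (2.70%, interval 0.561% to 7.70%), at 981 ± 1493 TPM against 50.8 ± 490.4 TPM.

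The 3 inflammatory chemokine genes Ccl3, Ccl4 and Ccl5 were found almost wholly in cluster 2. Ccl4 (chr11:83662584-83664683) was detected in 19 of 61 cells of cluster 2 (31.1%) at a mean of 591 ± 1570.4 TPM. It was listed at 0 in the 111 follicular helper cells (floor of 3 cells, 2.70%). Ccl3 (chr11:83647844-83649355, minus strand) was detected in 13 of 61 against 1 of 111 cells, and Ccl5 (chr11:83525778-83530518, minus strand) in 14 of 61 against 1 of 111, at 1945 ± 6138 TPM against 8.73 ± 91.9 TPM. At least 1 of the 3 was detected in 28 of 61 cells of cluster 2 and 2 of 111 follicular helper cells. Ccl3 and Ccl4 were detected together in 8 of 61 cells of cluster 2.

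The markers by which type 1 cells are usually named differed less. Tbx21 (T-bet), the transcription factor of that state, was detected in 10 of 61 cells of cluster 2 (16.4%, interval 8.15% to 28.1%) and 8 of 111 follicular helper cells (7.21%, interval 3.16% to 13.7%), under the filter, at 58.0 against 32.4 TPM. Ifng was detected in 24.6% against 9.91%, at 137 against 70.6 TPM and 2.10 and 1.75 times the follicular helper mean in the 2 blocks, just under the level rule in the second, with intervals that overlap. Cxcr3, a target of Tbx21, was detected in 59.0% against 31.5% with intervals apart, at 592 against 368 TPM, a ratio under 2. Id2 was at 44.3% against 24.3% and Bhlhe40 at 41.0% against 35.1%, with no call. Tnf was detected in 9.84% against 12.6% and Gzmb in 1 of 61 cells of cluster 2 and 0 of 111 follicular helper cells. Of 19 listed cytotoxic genes, 5 passed the filter. Beside Nkg7, Gzmk was detected in 42.6% against 9.01%, the inhibitor of cathepsins Cst7 in 39.3% against 12.6% and the protease Ctsd in 78.7% against 44.1%, while the protease Ctsw was lower in share, at 14.8% against 35.1%.

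Il10 (chr1:131019845-131024974), a cytokine that restrains immune responses, was detected in 21 of 61 cells of cluster 2 (34.4%, interval 22.7% to 47.7%) and was listed at 0 in the 111 follicular helper cells. In cluster 2 its TPM per cell ran from 0 to 4161, with a mean of 502 ± 1109 TPM over cells and a median of 797 TPM among the cells that detected it. It was detected in 12 of 27 cells of cluster 2 in the first block and 9 of 34 in the second. The classes overlapped only in cells listed at 0. Il10 and Il21 were detected together in 12 of 61 cells of cluster 2 and 0 of 111 follicular helper cells. Il10 was found together with Prdm1 in 10 of 61 and with Ifng in 3 of 61 cells of cluster 2. At least 1 of Il10, Il21 and Ifng was detected in 43 of 61 cells of cluster 2 and 35 of 111 follicular helper cells. Among other cytokines and ligands, Il16 was at 37.7% against 66.7% and the ligand of CD30, Tnfsf8, at 16.4% against 39.6%, both lower in share in cluster 2. Cd40lg, through which T cells activate B cells, was detected in 21.3% against 36.0% and was lower in level at 71.2 against 210.0 TPM. Foxp3, which defines regulatory T cells that can also make Il10, was detected in 0 of 61 cells of cluster 2 and 2 of 111 follicular helper cells. Of 16 listed regulatory T cell markers 6 passed the filter and 4 were higher in level (Il10, Ctla4, Tnfrsf18 and Capg), with 3 higher and 0 lower in share. Over all genes compared, 4.70% were higher in level and 4.33% in share. The median difference in share was 26.7 points and the median ratio of means 3.45, beside 3.38 points and 0.973 over all genes compared. Il10 passed the filter through cluster 2 alone and Foxp3 did not pass, so these values describe the 6 genes and not the list.

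Detection in the same cell is described with trios of genes chosen after the values were seen, Tcf7, Bcl6 and Cxcr5 on one side and Prdm1, Cxcr6 and Nkg7 on the other. Since the trios were chosen for their difference between the classes, few cells with both was set by that choice. At least 1 gene of the first trio was detected in 8 of 61 cells of cluster 2 and 100 of 111 follicular helper cells, and at least 1 of the second in 54 of 61 cells of cluster 2 and 15 of 111 follicular helper cells. Genes of both trios were detected in 7 of 61 cells of cluster 2 and 11 of 111 follicular helper cells, and of neither trio in 6 of 61 cells of cluster 2 and 7 of 111 follicular helper cells. Of the 8 cells of cluster 2 with a gene of the first trio, 7 also had a gene of the second. Detection was incomplete within each class. In cluster 2 the 3 genes of the second trio were detected together in 11 of 61 cells, and in the follicular helper class the 3 genes of the first trio in 22 of 111. Whether cells within a class differ was not tested. Tcf7 and Bcl6 were detected together in 0 of 61 cells of cluster 2 and 43 of 111 follicular helper cells. A value of 0 in a single cell can be a failed capture, and Gapdh, which every cell uses, was listed at 0 in 3 cells of cluster 2 and 5 follicular helper cells.

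**Figure D3:**
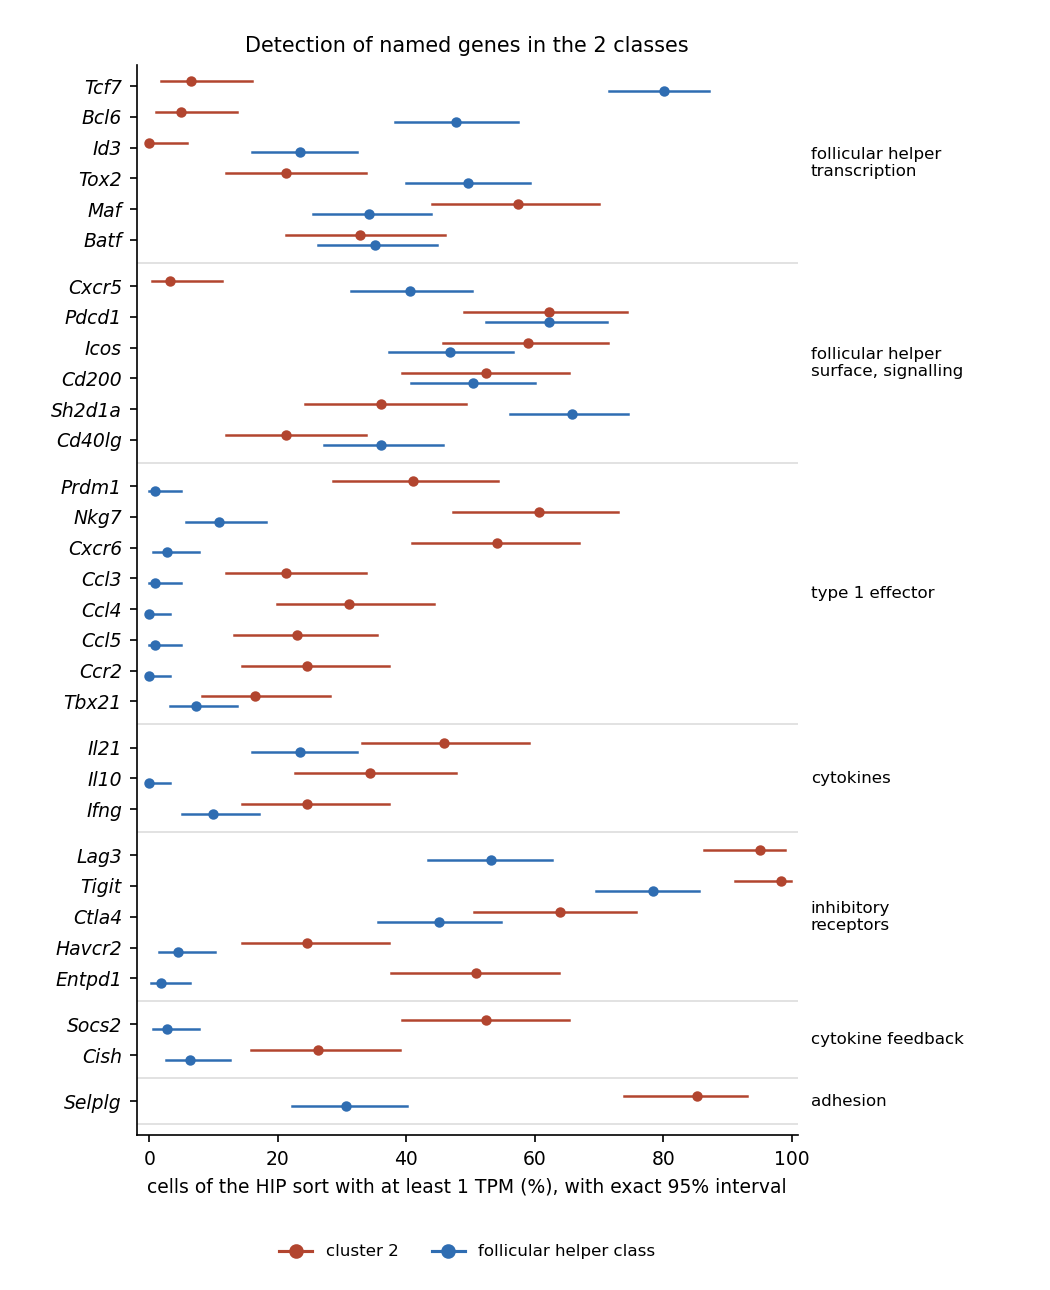
Share of cells of the HIP sort with at least 1 TPM (x axis, %) for genes grouped by role, in cluster 2 (red) and the follicular helper class (blue). Points are shares and bars exact 95% intervals, which stand apart for Tcf7, Bcl6, Cxcr5, Prdm1, Nkg7, Il10, Lag3, Entpd1 and Selplg and overlap for Pdcd1, Icos, Cd200, Batf, Tbx21 and Ifng.

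Inhibitory receptors were present in both classes and several were higher in cluster 2. Lag3 (chr6:124904361-124911705, minus strand), which binds MHC class II, was detected in 58 of 61 cells of cluster 2 (95.1%, interval 86.3% to 99.0%) and 59 of 111 follicular helper cells (53.2%, interval 43.4% to 62.7%). Its TPM per cell had a median of 3678 in cluster 2 and 1.99 in the follicular helper class, with highest values of 12614 and 4574, and its mean was 7.91 and 6.04 times the follicular helper mean in the first and second block. Tigit was detected in 98.4% against 78.4%, at 4739 against 2003 TPM. Ctla4, which takes CD80 and CD86 from antigen-presenting cells, was at 63.9% against 45.0% and 649 against 233 TPM, higher in level with intervals of share that overlap. Entpd1 (CD39, chr19:40612366-40741602), an enzyme that degrades extracellular ATP, was detected in 31 of 61 cells of cluster 2 (50.8%, interval 37.7% to 63.9%) and 2 of 111 follicular helper cells (1.80%, interval 0.219% to 6.36%). Havcr2 (TIM-3) was detected in 15 of 61 cells of cluster 2 at a mean of 145 TPM, and in 5 of 111 follicular helper cells at traces that gave a mean of 0.0952 TPM. Lag3 and Entpd1 were detected together in 30 of 61 cells of cluster 2 and 2 of 111 follicular helper cells. Of 22 listed genes, 14 passed the filter, 5 were higher in level and 1 (Btla) lower, where 4.70% and 5.79% of all genes compared were.

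Several costimulatory receptors of the TNF receptor family were higher in cluster 2. Tnfrsf18 (GITR) was detected in 73.8% against 27.9%, Tnfrsf4 (OX40) in 68.9% against 36.9% and Tnfrsf1b, a receptor of TNF, in 67.2% against 19.8%, with means of 1531 against 372 TPM, 1659.7 against 508 TPM and 315 against 56.0 TPM. Slamf1 was at 32.8% against 6.31%. Cd28 was at 55.7% against 51.4% and Cd27 at 39.3% against 45.0%, with no call. Of the 14 listed genes, 9 passed, of which 4 were higher and 1 (Cd40lg) lower in level. Over all genes compared, 4.70% were higher and 5.79% lower. Tnfrsf26, a mouse decoy receptor gene of the same family that the list did not hold, went the other way, at 3.28% against 49.5%.

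Inhibitors of cytokine signalling that cytokines themselves induce were found in both directions. Socs2 was detected in 32 of 61 cells of cluster 2 (52.5%, interval 39.3% to 65.4%) and 3 of 111 follicular helper cells (2.70%, interval 0.561% to 7.70%), at 365 ± 489.7 TPM against 9.15 ± 63.7 TPM, and Cish (chr9:107296026-107302784) in 26.2% against 6.31%, at 180.0 against 27.9 TPM. Socs1, another inhibitor of cytokine signalling, was lower in level, at 32.0 against 123 TPM. Il2rb, the receptor chain for IL-2 and IL-15, was detected in 83.6% against 54.1%, the interferon gamma receptor chain Ifngr1 in 29.5% against 7.21% and Tgfbr2 in 41.0% against 23.4%, while Ifngr2 was at 18.0% against 25.2% with means of 0.295 against 4.26 TPM. Of 27 listed genes, 18 passed. Level was higher in 5 (Socs2, Cish, Il2rb, Ifngr1 and Tgfbr2) and lower in 3 (Socs1, Ifnar2 and Ifngr2). Beside these stand 4.70% higher and 5.79% lower over all genes compared.

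Promoter sequences of 3 of the genes named above are shown because they carry letters known from lymphocyte gene control. STAT factors, which act downstream of cytokine receptors, bind sites of the form TTCNNNGAA, and T-box factors such as Tbx21 bind around GGTGTGA. The windows run from 250 bases before to 50 after the gene's start in RefSeq (GRCm38.p6), 5′ to 3′ on the gene's strand, with matches to these 2 motifs on either strand in capitals. The genes and motifs were chosen after the values were seen, from 10 motifs searched on both strands. The others were CTTTGA and CTTTGAA, which overlap each other and are known from TCF factors, TGANTCA from AP-1, TGTGGTT from Runx factors, TGGAAA from NFAT, GAAAGTGA from Blimp-1, GGAANTCC from NF-kB and GTAAACA from forkhead factors, held by 1.47% to 21.4% of promoter windows.
Bcl6, chr16:23988803-23989102, minus strand: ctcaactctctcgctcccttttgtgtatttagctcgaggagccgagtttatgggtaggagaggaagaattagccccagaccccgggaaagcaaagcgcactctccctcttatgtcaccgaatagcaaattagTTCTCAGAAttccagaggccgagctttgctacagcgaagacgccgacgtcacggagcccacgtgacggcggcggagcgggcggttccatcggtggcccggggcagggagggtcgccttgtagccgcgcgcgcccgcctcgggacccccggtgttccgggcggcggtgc
Cish, chr9:107296409-107296708, plus strand: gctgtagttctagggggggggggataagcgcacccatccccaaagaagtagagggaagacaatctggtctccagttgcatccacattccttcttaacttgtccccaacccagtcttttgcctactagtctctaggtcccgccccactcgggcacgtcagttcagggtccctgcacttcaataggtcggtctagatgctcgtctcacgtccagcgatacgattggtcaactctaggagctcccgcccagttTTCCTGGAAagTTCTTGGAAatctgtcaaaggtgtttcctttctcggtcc
Nkg7, chr7:43436888-43437187, plus strand: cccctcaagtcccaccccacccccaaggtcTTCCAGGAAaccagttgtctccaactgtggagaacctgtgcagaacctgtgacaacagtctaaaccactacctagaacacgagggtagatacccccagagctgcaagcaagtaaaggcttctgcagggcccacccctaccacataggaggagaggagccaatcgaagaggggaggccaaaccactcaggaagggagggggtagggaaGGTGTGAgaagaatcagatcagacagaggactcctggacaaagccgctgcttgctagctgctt
Bcl6, lower in cluster 2, held 1 match to TTCNNNGAA in this window and 3 in the window of another RefSeq start (chr16:23981234-23981533), Cish, higher, held 2, and Nkg7, higher, held 1 and also 1 match to GGTGTGA. The search also took in Prdm1, whose window matched neither motif, and Socs2, for which no window was available. Of 32851 promoter windows of the same length, 8.30% held TTCNNNGAA and 3.98% held GGTGTGA. A match describes letters and not binding. Of the 154 genes higher in level 119 had a promoter in the table, under 80%, so no share over the called genes is given.

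The selectin ligand gene Selplg and several cytoskeleton and migration genes were also higher in cluster 2. Selplg (chr5:113818536-113832644, minus strand), which encodes PSGL-1, a ligand that follicular helper cells carry at low level, was detected in 52 of 61 cells of cluster 2 (85.2%, interval 73.8% to 93.0%) and 34 of 111 follicular helper cells (30.6%, interval 22.2% to 40.1%), and its mean was 4.16 and 5.40 times the follicular helper mean in the 2 blocks. Of 33 listed annexin, S100 and migration genes, 32 passed the filter, 7 were higher in level and 12 in share, with a median difference in share of 13.2 points. The values over all genes compared were 4.70%, 4.33% and 3.38 points. The calcium-binding S100a6 was detected in 77.0% against 32.4%, the galectins Lgals1 and Lgals3 in 93.4% against 60.4% and 34.4% against 4.50%, the intermediate filament Vim in 67.2% against 34.2%, Anxa6 in 70.5% against 29.7% and the actin-capping Capg in 62.3% against 21.6%. Tmsb10, which binds actin monomers, went the other way, at 82.0% against 96.4% and 468.4 against 2115 TPM. The integrin chain Itgb1 was lower in level, at 64.7 against 240.2 TPM, and Itgal and Itgb2 (LFA-1) were at 86.9% against 71.2% and 90.2% against 73.0%, with no call.

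Receptors for chemoattractants divided by class. Beside Cxcr6, cluster 2 was higher in the monocyte chemokine receptor Ccr2, detected in 15 of 61 cells of cluster 2 and in 0 of 111 follicular helper cells at 1 TPM, and in Ccr8, at 37.7% against 12.6%. S1pr4 was higher in level, at 216 against 68.2 TPM. Cxcr4, which guides cells within lymphoid tissue, was detected in 47.5% against 74.8% and was lower in cluster 2 at 68.9 against 277 TPM. S1pr1, the receptor for exit from lymphoid tissue, was at 11.5% against 20.7% and lower in level at 36.4 against 123 TPM. Of 18 listed genes of naive and recirculating T cells, 6 passed the filter. Of these, 4 were lower and 0 higher in level, where 5.79% and 4.70% of all genes compared were. The 4 lower genes were Tcf7, Id3, S1pr1 and Nsg2, of which Tcf7 and Id3 are also on the follicular helper list.

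Genes that respond to the antigen receptor gave counts close to the share over all genes. Of 26 listed genes, 11 passed the filter, and 0 were higher and 1 lower in level, where 4.70% and 5.79% of all genes compared were. The median ratio of means was 1.01. The median difference in share was 7.83 points, beside 3.38 points over all genes compared. Cd69, an early activation receptor that holds cells in tissue, was lower in share in cluster 2, at 9.84% against 30.6%, and 127 against 294 TPM. Cd83 was lower in level, at 5.86 against 414 TPM. Nr4a1, which antigen receptor signals induce, was detected in 11 of 61 and 14 of 111 cells, Egr1 in 12 of 61 and 10 of 111, and Irf4 in 27.9% against 11.7%, at 0.811 and 6.80 times the follicular helper level in the 2 blocks. Of 17 AP-1 and stress response genes that passed, 2 were higher in level (Rgs1 and Klf6) and 2 lower (Fos and Zfp36l1). Fos was at 100.4 against 281 TPM, while Junb was detected in 78.7% against 79.3% and Dusp1 in 45.9% against 46.8%, with no call. Rgs1, which dampens chemokine receptor signals and is itself induced on activation, was detected in 75.4% against 27.9%, at 2195 ± 2925 TPM against 239 ± 664 TPM. Of 23 listed genes of the receptor complex and its signalling that passed the filter, 1 was higher in share, the receptor chain Cd247 (CD3 zeta), at 85.2% against 57.7% and 1551 against 754 TPM. Level was higher in 0 and lower in 2, Ptpn6 and the phosphatase Ptprc (CD45), the latter at 189 against 431 TPM. Among those with no call, Cd3e was at 96.7% against 94.6%, Zap70 at 86.9% against 75.7% and the coreceptor Cd4 at 91.8% against 81.1%. Ptpn6 (SHP-1), a phosphatase that restrains antigen receptor signals, was lower in cluster 2, at 16.4% against 44.1% and 80.6 against 417 TPM.

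Among transcription factors of effector states, 27 of 40 listed genes passed the filter, 3 were higher in level and 6 lower. Over all genes compared, 4.70% were higher and 5.79% lower. Beside Prdm1, the higher ones were Runx2, at 24.6% against 3.60%, and Klf6, at 29.5% against 13.5%. Beside Tcf7, Bcl6, Id3 and Tox2, the lower ones were Stat5a, at 8.20% against 20.7% and 23.2 against 66.7 TPM, and Stat6, at 21.3% against 26.1% and 69.9 against 159 TPM, both signal carriers of cytokine receptors. Ikzf3 (Aiolos), an Ikaros family factor, was higher in share, at 45.9% against 22.5%. Of 8 genes of the SLAM family and its adaptors that passed, Cd48 was higher with Slamf1, at 54.1% against 26.1%, and Sh2d1a was the 1 lower. Among 8 survival genes that passed, 1 was higher and 2 lower in level, with a median ratio of means of 1.27. The lower ones were the death receptor Fas, at 67.3 against 197 TPM, and Birc3, at 45.7 against 152 TPM. Of 8 GIMAP GTPases, 1 (Gimap7) was higher, at 44.3% against 18.0%. The list of 9 Th2 and Th17 markers had 1 gene past the filter and 0 calls. The few calls in these short lists are not read as results about the lists.

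Genes of energy metabolism, protein degradation and division had 1 call in level. Of 44 oxidative phosphorylation genes compared, 0 were called in level and 1 (Ndufb8) was higher in share, at a median ratio of means of 1.04. Of 30 proteasome genes 0 were called, at a median ratio of 1.08. Of 12 glycolysis genes, 1 (Pfkp, which opens the committed part of the pathway) was lower in level, at 63.8 against 173 TPM. Of 30 cell division genes, 6 passed the filter with 0 calls, and Mki67 was detected in 3 of 61 and 5 of 111 cells. Of 19 genes of protein folding and secretion in the endoplasmic reticulum that passed, 1 was higher and 3 lower in level. In share, 2 were higher and 1 (Dnajc3) lower. Over all genes compared, 4.70% and 5.79% were higher and lower in level and 4.33% and 1.19% in share. These few calls are not read as a result about the list. The chaperone Hsp90b1 was higher by both rules at 62.3% against 36.0% and Pdia3 in share at 78.7% against 55.9%, while Canx, Dnajb9 and Dnajc3 were lower in level, at 80.9 against 161 TPM, 33.0 against 130.3 TPM and 11.9 against 57.2 TPM. Of 31 interferon-stimulated genes, 12 passed the filter and 3 were higher and 1 (Socs1) lower in level. The higher ones were Gbp7 at 42.6% against 9.01%, Gbp6 at 24.6% against 9.91% and Igtp at 34.4% against 19.8%, members of GTPase families that interferon gamma induces strongly and whose similar copies make the assignment of reads uncertain. Gbp4 was higher in share, at 55.7% against 30.6%.

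The largest differences also held genes outside the lists. Cdkn1a (p21), an inhibitor of the cell cycle, was detected in 17 of 61 cells of cluster 2 (27.9%) at 149 TPM and was listed at 0 in follicular helper cells. Agpat4, an enzyme of phospholipid synthesis, was at 31.1% against 2.70%, the GTPase Arl5a at 63.9% against 12.6%, the sulfotransferase Chst2 at 59.0% against 14.4% and the glutaredoxin Glrx at 65.6% against 23.4%. Gdpgp1 was called higher in level at 36.0 against 1.25 TPM although fewer cells of cluster 2 detected it, at 26.2% against 33.3%. In the other direction, Tespa1, which takes part in T cell receptor signalling, was detected in 1 of 61 cells of cluster 2 (1.64%, interval 0.0415% to 8.80%) and 50 of 111 follicular helper cells (45.0%, interval 35.6% to 54.8%). Asap1, a regulator of Arf GTPases, was detected in 0 of 61 and 43 of 111 cells, Nsg2 in 0 of 61 and 41 of 111, and the actin regulator Evl in 3 of 61 and 42 of 111. Dennd2d, an activator of Rab GTPases, was at 16.4% against 64.9% with means of 41.0 against 519 TPM. Zfp36l1, which shortens the life of messenger RNAs, was at 29.5% against 63.1%. Clec2i, Zfp773 and Art2a-ps, which have similar copies in the genome and are therefore uncertain, were at 1.64% against 22.5%, 0% against 26.1% and 8.20% against 25.2%.

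**Figure D4:**
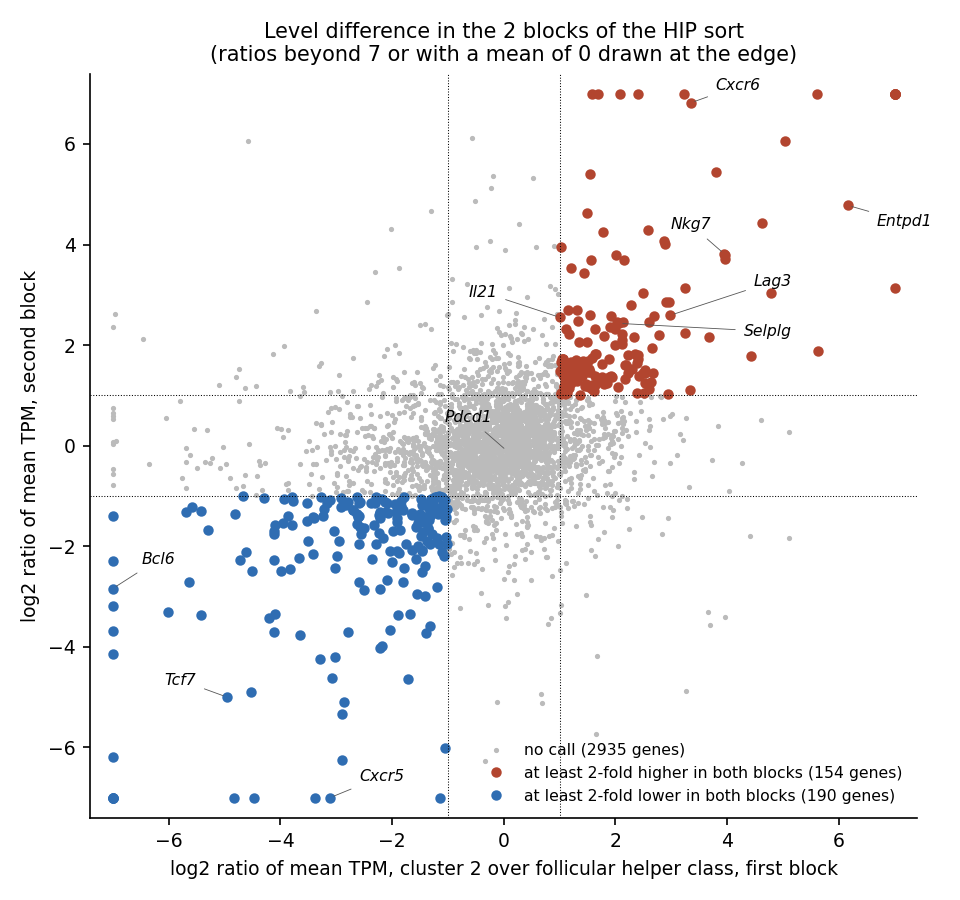
Each point is 1 gene compared, placed by the log2 ratio of mean TPM, cluster 2 over the follicular helper class, in the first block (x axis) and the second (y axis). Dotted lines mark 2-fold. The 154 red genes were at least 2-fold higher in both blocks and the 190 blue genes at least 2-fold lower in both. Tcf7 is near -5 in both blocks and Pdcd1 near 0.

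Defining markers of other cell types were at or near 0 in most cells of both classes. One follicular helper cell detected the B cell markers Cd79a, Cd79b and Ms4a1, Cd79b was detected in 1 further follicular helper cell, and these 3 genes were listed at 0 in the 61 cells of cluster 2. Summed over the 8 B cell genes, the level ran from 0 to 6.45 TPM and from 0 to 15352 TPM per cell. Of the antibody-secreting cell markers, Prdm1 was the 1 called, while Mzb1, Derl3 and Tnfrsf17 were listed at 0 in both classes and Sdc1 stayed under 1 TPM. Of the myeloid markers, Lyz2, C1qb, Itgax and Fcer1g were listed at 0 in both. Cst3, a protease inhibitor that many cells make, was the member of that list past the filter, at 60.7% against 41.4%, and set most of its summed level, which had a median of 1006 TPM in cluster 2 and 0 in the follicular helper class (highest 4755 and 4500.3 TPM). Of the CD8 T and NK cell markers, Gzma and Klrb1c were listed at 0 in both classes, Cd8a was detected in 0 of 61 and 3 of 111 cells, and Cd8b1 in 36.1% against 31.5%, lower in level at 9.95 against 34.3 TPM. Pecam1, which endothelial cells and some T cells carry, was lower in level at 6.56% against 22.5% and 11.4 against 139 TPM, and Cdh5, which defines endothelial cells, was listed at 0. Ins2, the insulin gene of the surrounding islet, was detected in 5 of 61 and 12 of 111 cells at means of 173 against 195 TPM. Of 9 acinar and duct genes and 6 islet endocrine genes, 0 passed the filter.

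The number of genes above 0 per cell was 2075 at the median in cluster 2 (range 839 to 3593) and 1951 in the follicular helper class (range 625 to 3343). Over all genes compared, the median difference in share was 3.38 points in favour of cluster 2. Among the 41 and 71 cells with 1500 to 2500 genes, whose medians were 2006 and 1973 genes, it was 0.447 points, and genes called higher in share numbered 73 in place of 142, of which 65 were among the 142. That setting also has fewer cells and so wider intervals, and what gene number and cell number each did to the count was not tested. Genes called lower in share numbered 40, of which 26 were among the 39. In level, 169 genes were called higher and 233 lower in these cells, of which 101 were among the 154 and 124 among the 190. The ribosomal RNA precursor Rn45s took 0.188% to 3.06% of TPM in cells of cluster 2 and 0.522% to 44.4% in follicular helper cells. Without the cells in which it took over 10% and the cell with B cell markers, 61 and 106 cells were left. Then 146 and 188 genes were called higher and lower in level and 127 and 40 in share. Of the main calls, these held 136 of the 154 and 157 of the 190 in level, and 124 of the 142 and 38 of the 39 in share.

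The same classes in the Ins tetramer sort, 25 cells of cluster 2 and 61 follicular helper cells, give values from other cells of the series. They are not independent of the classes, since cells of both sorts carry 1 set of cluster numbers. Over the 3279 genes, the mean TPM with all 3 Ins blocks pooled was at least 2-fold higher in cluster 2 for 432 (13.2%) and at least 2-fold lower for 590 (18.0%). Of the 154 genes higher in level in the HIP sort, 74 (48.1%) were at least 2-fold higher in the Ins sort and 19 (12.3%) at least 2-fold lower. Of the 190 lower in the HIP sort, 83 (43.7%) were lower and 18 (9.47%) higher. Tcf7 was detected in 12% of the cells of cluster 2 and 77.0% of follicular helper cells of the Ins sort, Cxcr6 in 68% and 3.28%, and Prdm1 in 28% and 3.28%. Il10 was detected in 5 of 25 and 2 of 61 cells. Il21 was detected in 32% and 27.9%, and its mean in cluster 2 was 0.878 times that of the follicular helper class there, against 2.80 times in the HIP sort. Lag3 was detected in 92% and 78.7%. Whether these differences between sorts exceed chance was not tested, as each sort is 1 sample.

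**Figure D5:**
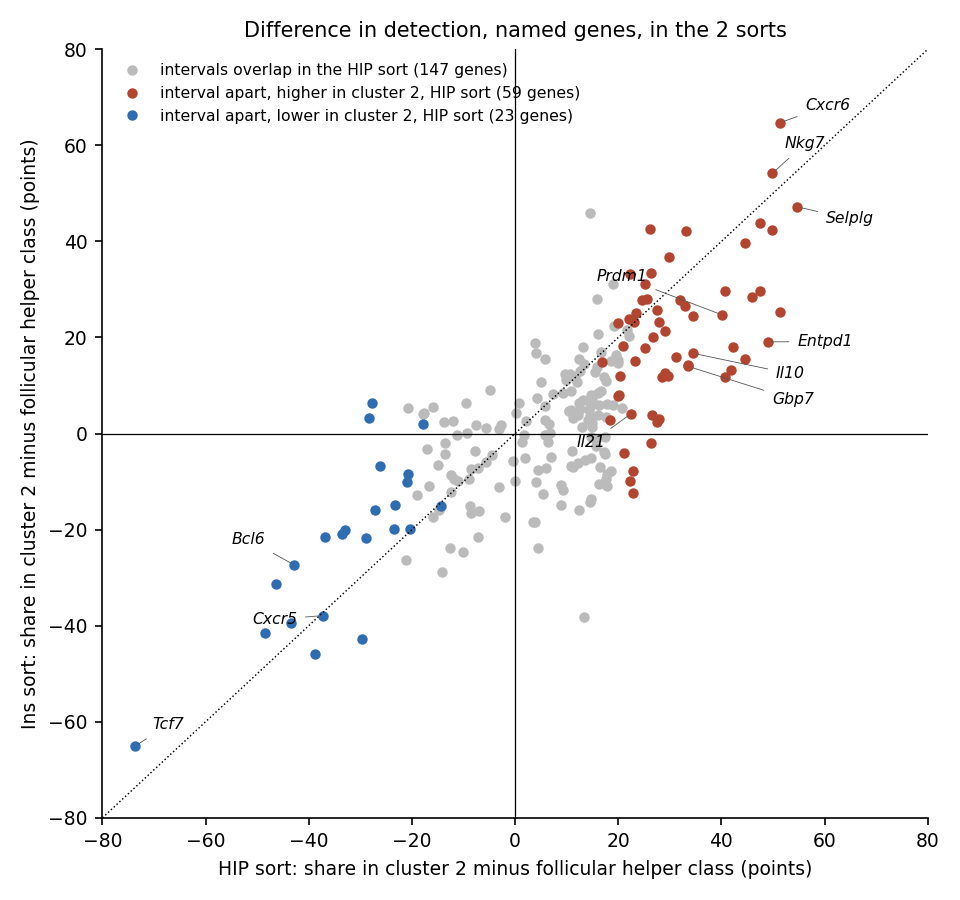
Each point is 1 of the 229 named genes that passed the filter, placed by the difference in share of cells with at least 1 TPM, cluster 2 minus follicular helper class, in the HIP sort (x axis, points) and the Ins sort (y axis, points). Of the 59 red genes, called higher in the HIP sort, 54 lie above 0 in the Ins sort. Of the 23 blue genes, called lower, 20 lie below 0. Many named genes were chosen for their difference in the HIP sort, and both sorts share 1 set of clusters. These counts are therefore no independent repeat, and the matching share over all genes compared was not computed.

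Prdm1, Cxcr6, Nkg7 and Il10 were also detected outside cluster 2, in several other classes. In the 115 cells of the Ins sort that the annotation names regulatory T cells, Nkg7 was detected in 69.6% of cells, Cxcr6 in 53.0%, Il10 in 45.2%, Prdm1 in 37.4%, Lag3 in 98.3% and Tcf7 in 2.61%. Dividing cells of the Ins sort, 35 in number, had Nkg7 in 60.0%, Prdm1 in 48.6%, Cxcr6 in 28.6% and Il10 in 28.6%. Dividing cells of the HIP sort had Nkg7 in 5 of 9, and the class of 21 cells of the Ins sort that the annotation names B cells had Prdm1 in 66.7% and Cxcr6 in 0 of 21. Cluster 2 of the HIP sort held 0 of 61 cells with Foxp3. The share with Foxp3 in the regulatory T cell class is not given here, so this count is no comparison with that class.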

How the data were processed

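Single CD4 T cells from mouse islets were sequenced by SMART-Seq2. The deposited table gives, per gene and cell, a natural log value, ln(TPM/10 + 1), as read from the values, whose exponential minus 1 sums to 100000 in each cell. TopHat, Bowtie, RSEM 1.2.8 and mm10 are named per the submitters' processing notes, with no role given. The authors' annotation gives each cell's sort, cluster and number of genes above 0, and the sources used here do not give the clustering method. TPM was recovered as 10 × (exp(value) - 1).

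Means, shares and exact 95% intervals were computed in Python 3.11.15 with numpy 2.4.6, pandas 2.3.3 and scipy 1.17.1, after the scripts were tested on simulated data. The rules were a 2-fold difference of mean TPM in both blocks and intervals that do not overlap, among genes with detection in 20% or more of the cells in one class or the other. The genes named were a core list, the 12 with the largest fold and the 12 with the largest difference in share in each direction among called genes, and members of the gene lists that were called, with up to 6 others per list. Some named genes fell outside this rule and were chosen after their values were seen: Junb, Dusp1, Nr4a1, Egr1, Batf, Gapdh and markers of other cell types. The classes, lists and rules were chosen with earlier results of these data known. Il2 and Csf2 were not analysed here, and some further genes are not reported here. Gene coordinates are from GENCODE M21 (GRCm38) and promoters from RefSeq (GRCm38.p6). Alternatives tried were the scale, fold, filter, detection level, blocks and cells used. Among the 172 cells of the 2 classes in the HIP sort, no 2 held the same values (highest correlation 0.536). Other cells were not checked in this way. Both sorts are 1 sample each, so no test was made.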

Additional observations from a re-analysis of the deposited data

Results flagged for a closer look

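Among the named genes called in the HIP sort, Gbp6 and Gbp7 were at least 2-fold the other way in the Ins sort and that way in each of its 3 blocks. Both are guanylate-binding GTPase genes of a family with similar copies, among which the counting can divide reads. Gbp6 in cluster 2 was 3.28 times the follicular helper mean in the HIP sort and 0.0107 times in the Ins sort, where 2 of 25 and 8 of 61 cells detected it. Gbp7 was 5.34 times the follicular helper mean in the HIP sort and 0.333 times in the Ins sort, with detection in 8 of 25 and 11 of 61 cells there, a higher share of cluster 2 than of the follicular helper class. The difference between the sorts was not tested, as each sort is 1 sample.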

How the results depend on the processing

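Of the counts of genes higher and lower in level (154 and 190) and in share of cells (142 and 39), those in level moved with the rule. They were 233 and 70 for a difference of at least 1 in mean log2(TPM + 1), which shared 89 and 41 genes with them, 66 and 75 at 3-fold, and 322 and 413 with the blocks pooled. With the filter at 10% of cells they were 315 and 479, and with no filter 708 and 1542. At 40% they were 59 and 60, with 90 and 18 in share, where fewer genes were compared. With detection at 10 TPM, 106 genes were lower in level. In 1 block alone, over the same 3279 genes, the first gave 13.6% higher and 22.1% lower in level (against 4.70% and 5.79% for genes past the rule in both) and 1.16% and 0.610% in share (against 4.33% and 1.19% with both blocks). The second gave 14% and 13.4% in level and 2.47% and 0.823% in share. In cells with 1500 to 2500 genes, 73 were higher in share, and 169 and 233 were higher and lower in level, which shared 101 and 124 genes with the main calls. Counts stayed within 1.5 times without Rn45s, without the 100 highest genes and without each gene's highest cell per class and block (157 and 267 in level). So did counts without cells with B cell markers or over 10% Rn45s, an alternative chosen after seeing the data. The genes called were not all the same under these alternatives. The differences in share of 31 genes chosen for this check kept their sign wherever they were called. For some genes the share of at least 1 class left that class's interval in the main result. These were 8 genes in each block alone, 2 in cells with 1500 to 2500 genes, 1 at 10 TPM and 0 without Rn45s. Tcf7 was 82.6 points lower in the second block alone. No paired analysis was possible because cells carry no animal or replicate number. The reads behind each TPM are unknown, so no limit from depth can be given, and a gene listed at 0 in a cell may have been missed.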
